A study of Mus musculus with 11 samples.

Results

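A set of 10 genes of the Polycomb repressive complexes were followed in nascent RNA from mouse embryonic stem cells, over their exons and over the antisense RNA that starts upstream of them. They were taken by symbol from a table of 13088 genes counted over exons, where all 10 were present, and by gene identifier from a table of 5867 upstream antisense RNA (uaRNA) regions, which held 9 of them. The uaRNA of Pcgf6 was not analysed here. A uaRNA is a short-lived transcript that leaves a promoter in the direction opposite to the gene.

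The cells were wild-type F121-9, an established line from a female CAST/129 hybrid background, grown in serum-free medium with LIF and inhibitors of MEK and GSK3. They were transfected with 30 nM of a non-targeting siRNA (siNT, replicates 1, 2 and 3) or of an siRNA against Zc3h4 (siZC3H4, replicates 2 and 3) and harvested 47 hours later, after 20 minutes in 500 µM 4-thiouridine. In transient transcriptome sequencing (TT-seq) the RNA made in that time is fragmented, captured through the label and sequenced. Both groups were wild type, and nothing in the labels states that replicates were separate cultures, so p-values measure the spread between these libraries, which may be technical. The series also has 3 DMSO and 3 dTAG13 samples of clones that carry a degradable form of ZC3H4; these were not used here.

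ZC3H4 acts with WDR82 in a complex named Restrictor that limits early elongation, above all of noncoding RNA. Polycomb proteins act in complexes that keep developmental genes silent in embryonic stem cells. Polycomb repressive complex 2 (PRC2) methylates a lysine of histone H3 and is built on EZH2, EED and SUZ12, while JARID2, MTF2 and AEBP2 are accessory subunits that help it bind chromatin. Polycomb repressive complex 1 (PRC1) adds ubiquitin to histone H2A through RNF2 or RING1, and KDM2B and PCGF6 belong to variant forms of it that are brought to promoters in other ways.

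Values are reads divided by 1 depth factor per library. Before that division, exon reads totalled 14840637 to 26548710 per library and uaRNA reads 996927 to 2648683. Zc3h4 itself, the siRNA target, had 3465, 3610 and 3363 exon reads with siNT and 7285 and 6718 in the libraries labelled siZC3H4. It was thus higher where the label says it was targeted, by a log2 difference of 1.01 ± 0.11 (SE; limma, Benjamini-Hochberg adjusted p = 0.00431), and leaving out siNT replicate 1 or siZC3H4 replicate 2 brought the adjusted p to 0.0549 or 0.0578. Directions below are therefore those of the libraries labelled siZC3H4. All 8 naive stem cell markers were measured, with summed exon reads of 89522 to 106425 in siNT and 75986 to 92314 in siZC3H4 libraries. Of these 8, 7 had a log2 difference below 0, and limma called 0. Of 6 primitive endoderm markers 5 were in the table and summed to 156 to 255 against 275 to 293 reads. The 4 neural markers summed to 1310 to 1595 against 1892 to 1944 reads. Both sums were thus higher in the libraries labelled siZC3H4, while limma called 0 of the 5 and 0 of the 4 (smallest adjusted p = 0.222 and 0.241). The fibroblast markers Col1a1, Col1a2 and Postn and the trophoblast markers Cdx2, Elf5 and Hand1 were not listed in the gene table. The other fibroblast markers, Thy1 and Fn1, were read, summing to 27917 to 32853 in siNT and 28045 to 29757 in siZC3H4 libraries. Eomes and Tfap2c, the other trophoblast markers, summed to 1876 to 2415 in siNT and 2183 to 2228 in siZC3H4 libraries. Of 3 mesoderm markers 2 were listed, summing to 149 to 311 in siNT and 199 to 366 in siZC3H4 libraries. Of 5 markers of two-cell-like cells Zscan4c was listed, with 2.56 to 7.83 reads in siNT and 14.1 to 15.3 in siZC3H4 libraries. Its mean was under 10, so it was not tested.

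The sequences below show the stretch into which a uaRNA of Aebp2, Jarid2 and Ring1 would be transcribed, since these hosts had the largest call, the most uaRNA reads in the libraries labelled siZC3H4, and the smallest difference. Each is the 250 bases before a RefSeq gene start (GRCm38.p6, the same build as mm10), read 5′ to 3′ in the direction of the uaRNA, away from the gene, with CpG dinucleotides in capitals. Aebp2 lies on the plus strand of chromosome 6, and its windows are chr6:140622413-140622662, before the start nearest to the deposited gene start, and chr6:140624659-140624908, before a start 2207 bases downstream of the deposited one. Jarid2 lies on the plus strand (chr13:44731021-44731270) and Ring1 on the minus strand (chr17:34024681-34024930). The uaRNA table gives no coordinates, so where its reads lie in or beyond these windows is not known.
Aebp2, nearest start: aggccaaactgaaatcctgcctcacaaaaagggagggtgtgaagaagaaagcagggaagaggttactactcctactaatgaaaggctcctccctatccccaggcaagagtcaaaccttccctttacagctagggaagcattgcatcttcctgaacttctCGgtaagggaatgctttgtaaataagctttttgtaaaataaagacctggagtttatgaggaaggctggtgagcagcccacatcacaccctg
Aebp2, downstream start: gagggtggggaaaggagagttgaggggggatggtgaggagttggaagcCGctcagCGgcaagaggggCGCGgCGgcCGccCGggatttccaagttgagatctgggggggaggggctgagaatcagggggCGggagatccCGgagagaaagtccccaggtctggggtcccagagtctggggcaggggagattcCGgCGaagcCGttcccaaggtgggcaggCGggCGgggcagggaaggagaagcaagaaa
Jarid2: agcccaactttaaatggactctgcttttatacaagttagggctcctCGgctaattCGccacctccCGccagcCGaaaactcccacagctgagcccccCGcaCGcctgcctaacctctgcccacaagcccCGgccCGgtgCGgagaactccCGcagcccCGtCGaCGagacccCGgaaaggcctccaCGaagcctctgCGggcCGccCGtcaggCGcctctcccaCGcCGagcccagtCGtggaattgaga
Ring1: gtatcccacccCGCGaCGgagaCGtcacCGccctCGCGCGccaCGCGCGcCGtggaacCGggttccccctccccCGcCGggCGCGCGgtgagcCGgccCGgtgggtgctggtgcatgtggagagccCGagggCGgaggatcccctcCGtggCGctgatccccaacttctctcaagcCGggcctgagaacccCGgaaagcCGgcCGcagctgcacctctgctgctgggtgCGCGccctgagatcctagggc

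All 10 genes had such a window. The CpG count was 38 in Kdm2b, 37 in Suz12, 30 in Ring1, 23 in Ezh2 and in Mtf2, 22 in Jarid2, 20 in Rnf2, 14 in Pcgf6, 12 in Eed and 1 in Aebp2. The median was 18 (quartiles 13 and 25) over the 4057 tested uaRNA hosts with a window and 6 over all 32841 promoter windows. Of the 10, 8 thus lay at or above the lower quartile of the hosts, while the nearest Aebp2 window stood far below it and the downstream Aebp2 window, with 14, within the quartiles. For Kdm2b the deposited start is an internal one: RefSeq has further starts 88219 and 88811 bases upstream of it.

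Each nearest window was searched on the strand of the uaRNA for GGTAAG and its overlapping shift by a base, GTAAGT, for the related GGTGAG, all of which resemble a 5′ splice site, and for AATAAA, which resembles a polyadenylation signal. Aebp2 held GGTAAG 161 bases, AATAAA 196 bases and GGTGAG 226 bases from the gene start. Ring1 held GGTGAG at 87 bases and Pcgf6 GGTGAG at 66 bases, and the other 7 windows held none of the 4. In that direction GGTAAG was present in 1.95% of the hosts' windows, GTAAGT in 1.38%, GGTGAG in 6.83% and AATAAA in 3.52%, and in 3.72%, 3.12%, 8.18% and 9.49% of all windows. These are matches of letters only, and their relation to the reads was not tested.

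Antisense reads rose for most of these genes in the libraries labelled siZC3H4. Of the 9 uaRNAs, 7 rose and 0 fell (limma on log2(value + 1), adjusted over 5124 uaRNAs), with a median log2 difference of 0.97. Over all 5124 tested uaRNAs 62.1% rose and 1.13% fell, with a median of 0.88 (quartiles 0.46 and 1.31), so the share of Polycomb hosts that rose stood near that of all hosts. Every siZC3H4 library lay above every siNT library for 7 of the 9, as for 73.7% of all uaRNAs, and 2.11% lay wholly below. Both counts of 7 include Rnf2 and Kdm2b, which reached the minimum mean of 10 reads needed for testing only through the siZC3H4 libraries. Over the 7 hosts with a siNT mean of 10 or more, 5 rose, 5 lay wholly above and the median was 0.63. Of 4818 such uaRNAs 61.4% rose. Folds come from log2(value + 1), and so are too small for regions with few reads.

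Among the PRC2 core genes the rises were moderate. Eed, whose product binds the methylated histone tail, had 218, 223 and 259 uaRNA reads with siNT and 486 and 430 with siZC3H4. The groups did not overlap, and the log2 difference was 0.97 ± 0.23 (1.96-fold, 95% interval 1.42 to 2.69, adjusted p = 3.12e-04). Ezh2, which encodes the methyltransferase, had 230, 225 and 306 reads against 318 and 424. These groups were separated narrowly, siNT replicate 3 lying just below siZC3H4 replicate 2, with a log2 difference of 0.55 ± 0.24 (adjusted p = 0.0391). Suz12, the scaffold subunit, had 657, 477 and 896 reads against 851 and 1203. Here siNT replicate 3 exceeded siZC3H4 replicate 2, so the groups overlapped, and the log2 difference was 0.63 ± 0.22 (adjusted p = 0.0124).

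The calls for Ezh2 and Suz12 were lost when single libraries were left out, with DESeq2 and with no minimum mean. Of the 9 uaRNAs DESeq2 called 5 higher and edgeR 7, and edgeR gave adjusted p = 0.0344 for Ezh2. Without siZC3H4 replicate 3 the Ezh2 difference was 0.34 (adjusted p = 0.308) and that of Suz12 0.38 (adjusted p = 0.253). DESeq2 on the recovered reads gave adjusted p = 0.0537 for Ezh2 and 0.0505 for Suz12, and limma with no minimum mean gave 0.0590 and 0.0669. Leaving out siNT replicate 2 gave 0.0949 and 0.121, and leaving out siNT replicate 1 gave 0.148 for Ezh2. With the replicate number as a block the adjusted p was 0.0741 for Ezh2. Its difference was then 0.48, the same as without siNT replicate 1, which has no partner in the block.

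The accessory subunits of PRC2 spanned nearly the whole range of the set. Aebp2, a zinc finger subunit, had 64, 27 and 43.5 uaRNA reads in siNT and 222 and 156 in siZC3H4 libraries. Both siZC3H4 libraries held more reads than the highest siNT library. The log2 difference of 2.11 ± 0.31 (4.32-fold, interval 2.83 to 6.61, adjusted p = 5.91e-08) stood at percentile 96.9 of all tested uaRNAs. Jarid2, which encodes a DNA-binding partner of the same PRC2 form, had 444, 358 and 509 reads against 1324 and 1440, the most reads of the 9 in the siZC3H4 libraries. Its log2 difference was 1.67 ± 0.21 (3.19-fold, interval 2.37 to 4.28, adjusted p = 2.39e-09), at percentile 89.4. Aebp2 and Jarid2 were the 2 uaRNAs of the set whose call held in all 13 alternatives, with log2 differences of 1.23 to 2.41 and 0.78 to 1.79. Mtf2, a Polycomb-like subunit that binds CpG-rich DNA, had 88, 93.0 and 81.9 reads against 127 and 94.6. Its groups were apart by less than 2 reads, and the log2 difference of 0.32 ± 0.28 did not pass the test (adjusted p = 0.302, interval from -0.23 to 0.88).

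The PRC1 genes held the smallest difference and some of the largest, the latter on few reads. Rnf2, the main ubiquitin ligase subunit of PRC1, had 5, 3.48 and 4.27 uaRNA reads in siNT and 24.3 and 14.3 in siZC3H4 libraries. Kdm2b, which binds unmethylated CpG and brings a variant PRC1 to promoters, had 3, 7.83 and 3.41 against 22.6 and 20.1. In both hosts the siZC3H4 libraries lay well above the siNT libraries. The log2 differences were 1.92 ± 0.54 for Rnf2 (3.78-fold, interval 1.79 to 8.01, adjusted p = 0.00201) and 2.05 ± 0.54 for Kdm2b (4.15-fold, interval 1.98 to 8.70, adjusted p = 8.99e-04). Before depth division these were 5, 4 and 5 reads against 43 and 15 for Rnf2, and 3, 9 and 4 against 40 and 21 for Kdm2b. Both reached the minimum mean of 10 reads only through the siZC3H4 libraries, so a rise was needed for them to be tested. Over the 7 hosts with a siNT mean of 10 or more, 5 rose and 0 fell with a median of 0.63, where 61.4% of 4818 such uaRNAs rose and 1.2% fell. Without siZC3H4 replicate 2 the adjusted p of Rnf2 was 0.0992. With a pseudocount of 10 the log2 differences were 1.02 for Rnf2 and 1.10 for Kdm2b, both still past the threshold.

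Ring1, the paralogue of Rnf2, had the smallest uaRNA difference of the 9 hosts. It had 225, 194 and 168 uaRNA reads with siNT and 247 and 181 with siZC3H4. The groups overlapped, and the log2 difference was 0.12 ± 0.25 (adjusted p = 0.672, 95% interval from -0.37 to 0.62), at percentile 11.6 of all uaRNAs. The upper bound of that interval lies below the median of all uaRNAs. In RefSeq, Ring1 is the member with microRNA genes in the kilobase upstream: the hairpin of Mir219a-1 lies on the strand of Ring1 and that of Mir219c, on the opposite strand, spans 357 to 416 bases upstream of the deposited Ring1 start. Whether their transcripts are among the reads counted for the Ring1 uaRNA was not tested. The lncRNA F830010H11Rik starts on the other strand 185 bases from the start of Ezh2, and whether its reads are among those of the Ezh2 uaRNA was not tested. A start on the other strand within that kilobase was annotated for 319 of the 5124 hosts (6.23%). No RefSeq gene besides the gene itself lay within 5000 bases upstream of the other 8 genes. For Kdm2b that span lies inside the gene, downstream of its RefSeq starts at 88219 and 88811 bases. For Ring1 that span of 5000 bases also overlapped the protein-coding genes H2-Ke6 and Slc39a7.

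**Figure D1:**
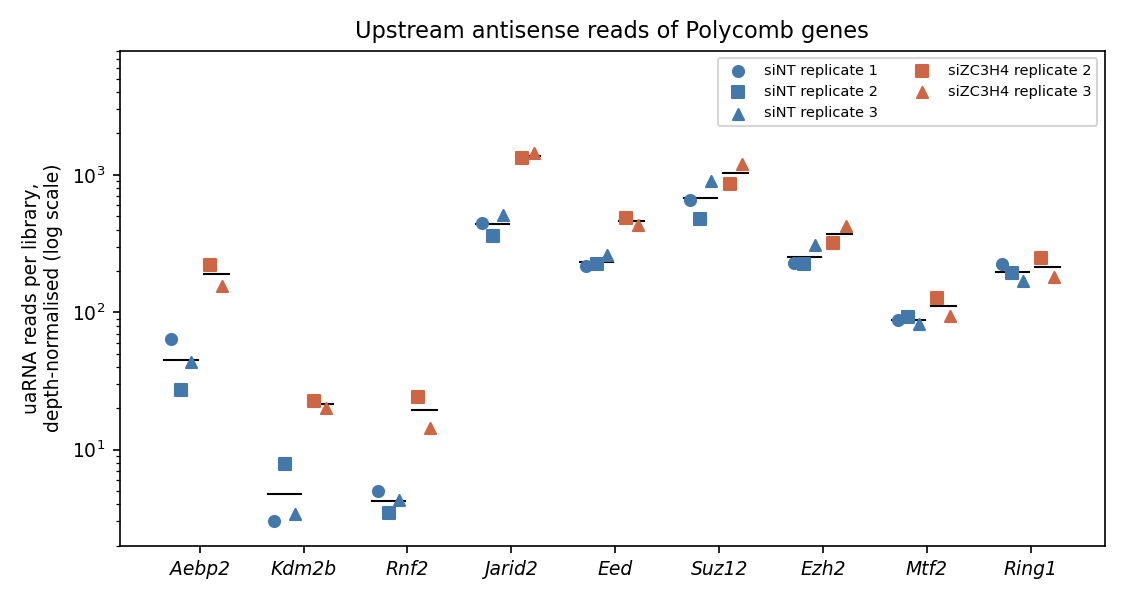
Depth-normalised uaRNA reads in each library on a log axis for the 9 host genes, with siNT libraries in blue, siZC3H4 libraries in orange, a marker shape per replicate number and a black line at each group mean. Aebp2, Kdm2b, Rnf2 and Jarid2 show the widest gaps between groups, and Suz12 and Ring1 overlap.

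The size of the antisense shift depends on the scaling. The authors' depth factors leave a median log2 difference of 0.88 over all uaRNAs. Scaled within the uaRNA table by TMM or by the median of ratios, which centres that median to 0.03 or 0.01, 2 of the 9 uaRNAs rose (Aebp2 and Jarid2) and 1 fell. Over all uaRNAs 10.9% rose and 11.0% fell by TMM, and 10.5% rose and 11.5% fell by the median of ratios. The one that fell was Ring1, at -0.74 by TMM (adjusted p = 0.0206) and -0.77 by the median of ratios (adjusted p = 0.0182), and Ezh2, Suz12 and Mtf2 were also below 0 without passing the test. Eed then stood at 0.11 and 0.08. Kdm2b stood at 1.27 and 1.25 (adjusted p = 0.0958 and 0.102) and Rnf2 at 1.15 and 1.12 (adjusted p = 0.0970 and 0.103), above Jarid2 at 0.81 and 0.78 but with wider errors and no call. The direction for Ring1, Ezh2, Suz12 and Mtf2 thus turned with scaling within the uaRNA table, which removes the common uaRNA shift by construction. TMM factors from the exon reads were 0.966, 1.13 and 1.21 for siNT and 1.75 and 1.08 for siZC3H4 libraries. The authors' factors were 1, 1.15 and 1.172, and 1.767 and 1.046. Set against exon reads within each library (below), the changes were 0.68 for Ezh2, 0.50 for Suz12, 0.34 for Mtf2 and -0.03 for Ring1, none past the threshold.

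Sense transcription of the 10 genes, read over exons, gave no call in either direction. Of the 10 genes, 0 rose and 0 fell by limma, adjusted over 12482 genes, and none had an unadjusted p under 0.05; edgeR and DESeq2 on the recovered reads also called 0. Over all tested genes 2.22% rose and 0.144% fell. The log2 differences ran from -0.14 to 0.15 with a median of 0.08, beside a median of 0.01 over all genes, and the smallest adjusted p was 0.67. The 95% intervals of the 10 genes lay between 0.746-fold and 1.53-fold, from the lowest bound (Jarid2) to the highest (Rnf2). Those of single genes were narrower, such as 0.758-fold to 1.09-fold for Ezh2.

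In PRC2, Ezh2 had 1681, 1609 and 1620 exon reads with siNT and 1526 and 1448 with siZC3H4. Both siZC3H4 values lay below every siNT value, yet the log2 difference of -0.14 ± 0.12 did not pass (adjusted p = 0.67); 12.8% of all genes lay wholly below in this way. Eed had 1707, 1844 and 2146 reads against 1954 and 2133, and the groups overlapped, with a log2 difference of 0.11 ± 0.13. Suz12 had 3006, 2904 and 4508 reads against 3148 and 4367. In both groups replicate 3 of Suz12 was far above the other libraries, and the log2 difference was 0.12 ± 0.21.

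Jarid2 had 6246, 6733 and 5571 exon reads in siNT libraries against 6290 and 5129. Here replicate 3 was the lowest of each group, and the log2 difference was -0.12 ± 0.13 (adjusted p = 0.782). Its exon reads thus did not pass the test while its uaRNA rose 3.19-fold. Mtf2 had 4009, 3795 and 5089 reads against 3534 and 5050, and Aebp2 had 1667, 1378 and 1718 against 1501 and 1752. Both overlapped between groups, with log2 differences of -0.01 ± 0.18 for Mtf2 and 0.04 ± 0.14 for Aebp2.

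In PRC1, Rnf2 had 687, 727 and 998 exon reads against 733 and 1050, again with replicate 3 highest in each group. Its log2 difference was 0.15 ± 0.21 (adjusted p = 0.837). Ring1 had 189, 209 and 204 reads against 212 and 232, the lowest exon reads of the set. Both siZC3H4 values of Ring1 lay above every siNT value, as for 19.5% of all genes, with a log2 difference of 0.15 ± 0.18 that did not pass (adjusted p = 0.793). Kdm2b had 1475, 2010 and 1501 reads against 2175 and 1501, with replicate 2 highest in both groups and a log2 difference of 0.14 ± 0.19. Pcgf6, the Polycomb group ring finger protein of a variant PRC1 active at germline genes, had 861, 832 and 1200 reads against 906 and 1054, which overlapped, with a log2 difference of 0.04 ± 0.18. The direction of the exon difference changed when single libraries were left out for Suz12, Jarid2, Mtf2, Aebp2, Rnf2, Kdm2b and Pcgf6.

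Per kilobase of transcript, which allows levels of different genes to be compared, Eed had the highest level in the siNT libraries, 1442 ± 170.5 reads (SD, n = 3). Mtf2 (1062 ± 171), Jarid2 (1042 ± 98.3) and Suz12 (791 ± 204) followed with overlapping ranges. Ezh2 came next at 618.5 ± 14.7, apart from its neighbours on both sides. Kdm2b (480 ± 87.1) and Pcgf6 (461 ± 97.7) overlapped, as did Aebp2 (269 ± 31.1) and Rnf2 (267 ± 56.2), and Ring1 was lowest at 99.8 ± 5.11. These levels ran from percentile 33.9 (Ring1) to 92.7 (Eed) of the tested genes. The transcript length is the one the authors' table gives, and exon reads of nascent RNA per kilobase are not levels of mature RNA.

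**Figure D2:**
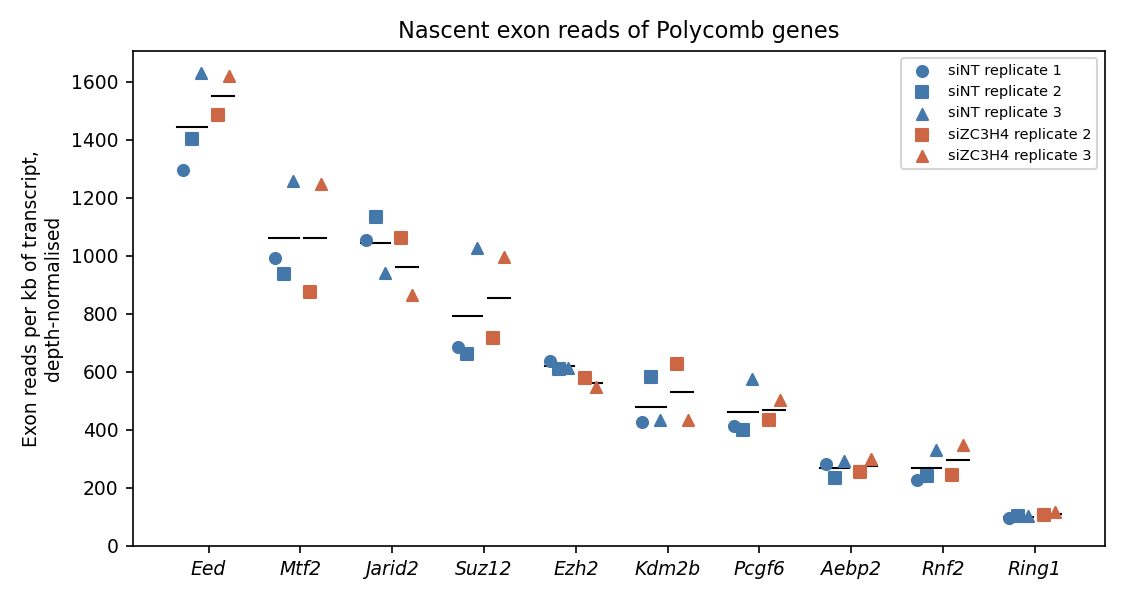
Depth-normalised exon reads per kilobase of transcript in each library for the 10 genes, ordered by their siNT mean, with siNT libraries in blue, siZC3H4 libraries in orange, a marker shape per replicate number and a black line at each group mean. Group means lie close together for every gene, and replicate 3 stands above replicate 2 in both groups for 6 of the 10.

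**Figure D3:**
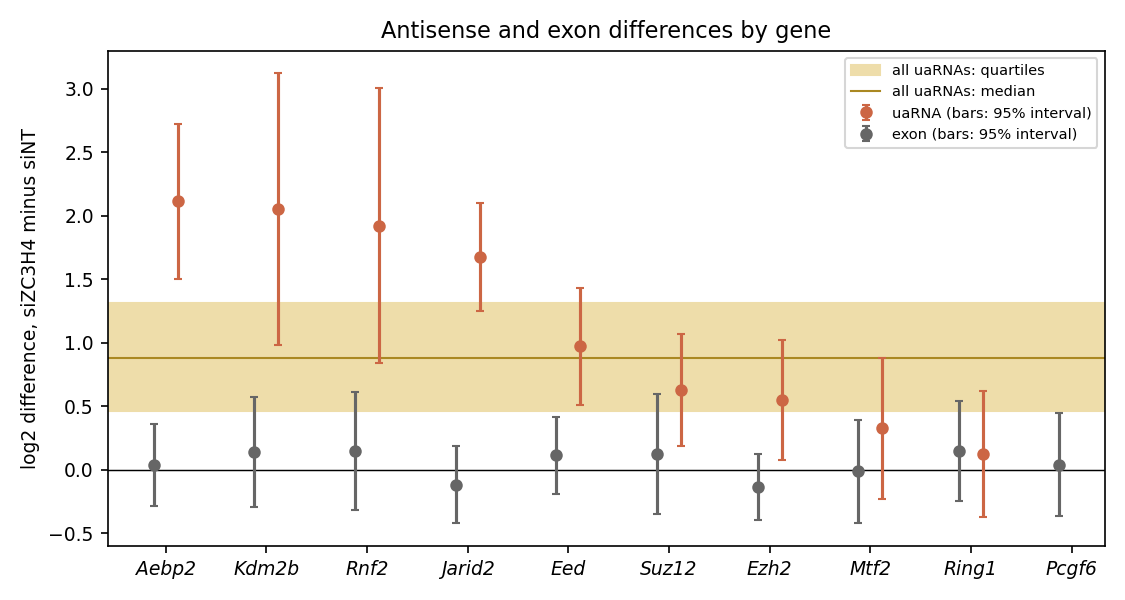
log2 difference, siZC3H4 minus siNT, of the uaRNA (orange) and the exon reads (grey) of each gene with limma's 95% interval, beside the median and quartiles of all tested uaRNAs (0.88, 0.46 and 1.31). Every exon interval spans 0, and the uaRNA values run from 0.12 for Ring1 to 2.11 for Aebp2.

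The antisense reads were then set against the exon reads of the same gene within each library, which removes any factor common to the library. This difference, log2(uaRNA + 1) minus log2(exon + 1), rose for 5 of the 9 genes and fell for 0 (limma over 5106 pairs, adjusted), where 53.9% of all pairs rose and 1.23% fell. Of those 5, Rnf2 and Kdm2b were tested only through their siZC3H4 reads; over the 7 hosts with a siNT uaRNA mean of 10 or more, 3 rose (Eed, Jarid2 and Aebp2) and 0 fell, with a median change of 0.68, where 52.4% of 4804 such pairs rose and 1.31% fell. For 7 of 9 both siZC3H4 libraries lay above all siNT libraries, as for 70% of pairs, and 3.06% lay wholly below. The median change was 0.86 over the 9 genes and 0.87 over all pairs. With 3 libraries against 2, an exact two-sided permutation test over 10 splits cannot give less than p = 0.1, so no single gene can pass 0.05 by it.

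For Aebp2 the values were -4.68, -5.62 and -5.27 with siNT and -2.75 and -3.48 with siZC3H4. The change of 2.07 was the largest of the set (exact permutation p = 0.1; limma adjusted p = 7.77e-04). Jarid2 had -3.81, -4.23 and -3.45 against -2.25 and -1.83, a change of 1.79 (exact permutation p = 0.1; limma adjusted p = 8.47e-04). Kdm2b and Rnf2 changed by 1.92 (limma adjusted p = 0.00163) and 1.77 (limma adjusted p = 0.00385), and Eed by 0.86 (limma adjusted p = 0.0195). The changes on few reads were smaller with a pseudocount of 10, at 0.97 for Kdm2b and 0.88 for Rnf2, and that of Rnf2 was 1.15 without siZC3H4 replicate 2. Ezh2 and Suz12, whose uaRNA rose on its own, did not pass here, with changes of 0.68 (limma adjusted p = 0.0634) and 0.50 (limma adjusted p = 0.134). Mtf2 changed by 0.34 (limma adjusted p = 0.449), and by -0.13 without siZC3H4 replicate 2.

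Ring1 was the host with as many uaRNA reads as exon reads. Its values were 0.25, -0.11 and -0.28 with siNT and 0.22 and -0.36 with siZC3H4. The groups overlapped, siZC3H4 replicate 3 being the lowest and siNT replicate 1 the highest of the 5, with a change of -0.03 (exact permutation p = 0.9, limma 95% interval from -0.65 to 0.60). Its sign turned without siNT replicate 1 (0.12) or siZC3H4 replicate 3 (0.26). For the other 8 hosts the siNT means lay between -8.26 (Kdm2b) and -2.38 (Suz12), so their exon reads exceeded their uaRNA reads in every library.

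**Figure D4:**
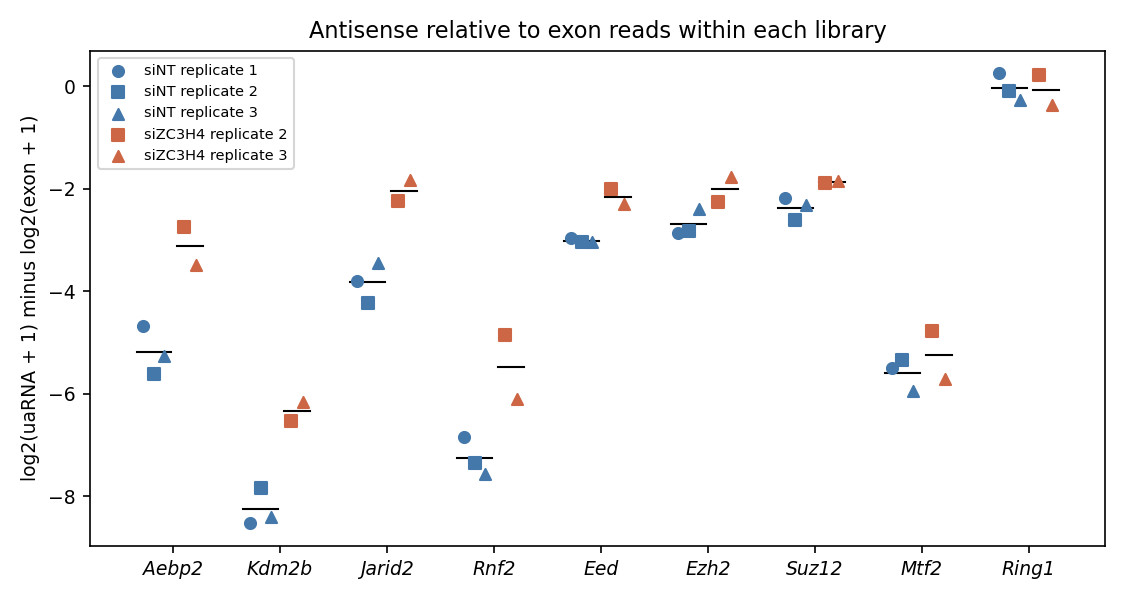
Per-library log2(uaRNA + 1) minus log2(exon + 1) for the 9 genes with both rows, ordered by the siZC3H4 minus siNT change, with siNT libraries in blue, siZC3H4 libraries in orange, a marker shape per replicate number and a black line at each group mean. The siZC3H4 libraries lie above the siNT libraries for 7 genes, and Mtf2 and Ring1 overlap.

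Other Polycomb genes gave a like picture of exon and antisense reads. Of 47 further listed genes, 43 were in the gene table and were tested over exons, where limma called 0 higher and 0 lower with a median log2 difference of 0.02; 4 were higher and 2 lower at an unadjusted p under 0.05, and edgeR and DESeq2 called 0. At that unadjusted threshold 11.0% of all genes were higher and 4.39% lower, so these counts stood near the background. Of their uaRNAs, 26 were in the table and 23 were tested, of which 15 rose and 0 fell with a median of 1.15; edgeR called 16 and DESeq2 12 higher. The share of 15 of 23 stood near the 62.1% of all uaRNAs.

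Among 8 other PRC2 genes over exons, the histone-binding subunits Rbbp4 and Rbbp7 and the elongin-binding Epop had the most reads, with log2 differences of -0.18, 0.13 and 0.06 that did not pass. Of their 5 tested uaRNAs 3 rose: Rbbp7 (1.21 ± 0.26), Lcor (1.20 ± 0.26) and Epop (1.15 ± 0.26). Among 25 other PRC1 genes, Usp7, a deubiquitinase of variant PRC1, Mga and L3mbtl2, both of the PCGF6 complex, had exon differences of -0.20, 0.07 and 0.07. Of their 14 tested uaRNAs 9 rose, the largest being Usp7 (1.74 ± 0.31), Fbrs (1.65 ± 0.22) and L3mbtl2 (1.47 ± 0.35). L3mbtl2 and Usp7, partners of the listed PRC1 genes, had a uaRNA call beside exon reads that did not pass. The same held for all 15 further Polycomb genes whose uaRNA rose, as 0 of 43 passed over exons.

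The genes that counter Polycomb, namely the histone H2A deubiquitinase complex and the demethylases of histone H3, were the third list. Over exons 0 of 10 passed limma, edgeR or DESeq2 and 3 were higher at an unadjusted p under 0.05 by limma, beside the 11.0% of all genes. Those with the most reads were Hcfc1 (0.05), Ogt (0.11) and Asxl1. Asxl1, a cofactor of the deubiquitinase, had 5251, 5844 and 5599 exon reads against 7162 and 6652, without overlap, and its log2 difference was 0.31 ± 0.11 (adjusted p = 0.212). Of 4 tested uaRNAs 3 rose: Foxk2 (1.66 ± 0.27), Hcfc1 (1.28 ± 0.26) and Ogt (0.70 ± 0.31, adjusted p = 0.0458).

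Hox, Gata, Pax, Lhx and Nkx genes, textbook targets of Polycomb repression in embryonic stem cells, were read over exons. The gene table held 23, of which 19 were tested, 1 rose and 0 fell, with a median log2 difference of 0.36 beside 0.01 over all genes; 5 were higher at an unadjusted p under 0.05 (11.0% of all genes), and edgeR and DESeq2 each called 1 higher. Over all 12482 tested genes 2.22% rose and 0.144% fell. Among the 19, 17 had a siNT mean of 10 or more, and the others were tested only through their siZC3H4 reads. Of the 17, 1 rose and 3 were higher at an unadjusted p under 0.05, with a median of 0.26. Of the 12396 genes with such a siNT mean 272 rose and 1320 were higher at that unadjusted threshold, with a median of 0.01. Pax6, Gata4 and Gata6 are also in the neural and primitive endoderm marker lists that summed higher in the libraries labelled siZC3H4, and the part of other cell types in the result was not tested. Nkx2-9, a homeobox gene of the ventral neural tube, had 32, 18.3 and 20.5 exon reads in siNT and 153 and 118 in siZC3H4 libraries. All siNT values were far lower, and the log2 difference was 2.50 ± 0.32 (5.66-fold, interval 3.44 to 9.32, adjusted p = 0.00678). The count was 0 without siNT replicate 1, where 2 of all 12482 tested genes rose. It was 3 without siNT replicate 3, where 676 of them rose, so it moved with the number of calls over all genes. The tested members with the most reads, Nkx1-2 and Hoxc12, had log2 differences of -0.01 ± 0.28 and 0.06 ± 0.21. The uaRNA of Hoxc13, the 1 in the uaRNA table, had a difference of 0.56 (adjusted p = 0.123).

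The genes whose profile over the 5 libraries lay nearest to the mean of the 10 Polycomb genes, by root mean square distance of centred log2 exon values, were Ep300 (0.0141), Dpy19l4 (0.0161) and Fnbp1l (0.0166). The Polycomb genes themselves lay between 0.0466 (Eed) and 0.291 (Kdm2b) from their mean, and the median over all genes was 0.195. In the uaRNA table the nearest were Pigv (0.0224), Rnf168 (0.0333) and Tbc1d25 (0.0356), with the 9 hosts between 0.117 (Eed) and 0.633 (Kdm2b) and a median of 0.353 over all uaRNAs. In both tables Eed was closest to the common profile and Kdm2b farthest.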

How the data were processed

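Per the labels' protocols the TT-seq libraries keep strand. The submitters' processing notes name cutadapt 1.14, STAR, featureCounts, DESeq2 and the builds mm10 and dm6, while settings and the origin of the depth factors are not given in the sources used here. In all, the authors deposited tables of depth-normalised signal for 5 of the 11 samples, per the file headers. Each value was a whole read count divided by 1 factor per library (1, 1.15 and 1.172 for siNT replicates 1, 2 and 3, 1.767 and 1.046 for siZC3H4 replicates 2 and 3), and 100% of values came out whole within 0.01 reads.

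From these, limma 3.58.1 in R 4.3.3 was run on log2(value + 1) (lmFit, then eBayes with a trend), siZC3H4 minus siNT, for features with a mean of 10 or more over the 5 libraries, which kept 12482 genes and 5124 uaRNAs. P-values were adjusted by Benjamini-Hochberg over each whole table with a threshold of 0.05, and "rose" and "fell" mean past it. Alternatives were edgeR 4.0.16 and DESeq2 1.42.0 on the recovered reads, a pseudocount of 10, no minimum or a minimum mean of 50, scaling by TMM or the median of ratios, the replicate number as a block, and each library left out. The limma fit on uaRNA minus exon and the counts over features with a siNT mean of 10 or more were added after seeing the data. Replicate numbers were not taken as pairs, since the groups share only 2 of them. The block leaves siNT replicate 1 without a partner, so its log2 differences equal those with that library left out.

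The genes and lists were chosen with earlier results of these data known. Named were all 10 genes, Zc3h4, for each other list the 3 with the largest difference past the threshold or, where fewer passed, those with the most reads, and the 3 nearest profiles. Promoters, microRNA positions and neighbours are from RefSeq (GRCm38.p6).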

Additional observations from a re-analysis of the deposited data

How the results depend on the processing

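Counts that moved by over 1.5 times did so under these settings. Scaled by TMM or by the median of ratios, which removes the common uaRNA shift by construction, 2 uaRNAs of the Polycomb set rose and 1 fell, and 2 uaRNAs of the 23 further Polycomb genes rose and 2 fell. Over all uaRNAs 10.9% rose and 11.0% fell by TMM, and 10.5% and 11.5% by the median of ratios. Counted over hosts with a siNT mean of 10 or more, 3 uaRNA minus exon changes rose. With single libraries left out, the set's uaRNA calls ranged from 5 to 7, the further genes' exon calls lower from 0 to 1 (1 without siNT replicate 3), and the developmental families' calls from 0 to 3. Over all 12482 tested genes 2 rose over exons without siNT replicate 1 and 676 without siNT replicate 3. With no minimum mean, 0 genes of the developmental families rose, where 38 of all 13088 genes did. The exon log2 difference of Zc3h4 ranged from 0.95 to 1.07 with single libraries left out.

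With the replicate number as a block, 3 further Polycomb genes rose and 4 fell over exons and 6 genes of the developmental families rose, where 1530 genes rose and 830 fell over the whole table. The calls of the set were then 0 over exons and 6 among uaRNAs, Ezh2 dropping out at 0.48 (adjusted p = 0.0741), and the exon difference of Pcgf6 was -0.032 with the block. Deviations of same-numbered libraries correlated at 0.53 and 0.62 over genes and 0.38 and 0.43 over uaRNAs; with 2 siZC3H4 libraries, whose deviations mirror each other, this is a hint from the data and not the design.

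Signs turned as follows, and the cause was not tested beyond the scaling itself. By TMM and the median of ratios the uaRNA differences were -0.32 and -0.34 for Ezh2, -0.24 and -0.26 for Suz12, -0.53 and -0.56 for Mtf2, -0.74 and -0.77 for Ring1, and -0.77 and -0.79 for Zc3h4. By the median of ratios the exon differences were -0.0028 for Aebp2 and -0.0013 for Pcgf6. With single libraries left out, the exon differences ranged from -0.11 to 0.36 for Suz12, -0.27 to 0.029 for Jarid2, -0.27 to 0.24 for Mtf2, -0.074 to 0.15 for Aebp2, -0.11 to 0.40 for Rnf2, -0.13 to 0.40 for Kdm2b and -0.069 to 0.21 for Pcgf6. The uaRNA differences then ranged from -0.10 to 0.35 for Ring1 and -0.23 to 0.42 for Zc3h4. The libraries whose absence turned the sign were siZC3H4 replicate 3 for Suz12, Jarid2, Aebp2, Rnf2, Pcgf6 and the Zc3h4 uaRNA, siZC3H4 replicate 2 for Mtf2, Kdm2b and the Ring1 uaRNA, siNT replicate 2 for Aebp2, Pcgf6 and the Zc3h4 uaRNA, siNT replicate 1 for Pcgf6 and siNT replicate 3 for Mtf2. The uaRNA minus exon change turned sign for Mtf2 (-0.13 without siZC3H4 replicate 2) and for Ring1 (0.12 with siNT replicate 1 left out, 0.26 with siZC3H4 replicate 3 left out).

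Over all single-gene values and settings, 267 kept direction and side of the threshold or moved within the replicate spread, 17 lost the call, 30 turned sign and 7 moved further with the same sign. With 3 and 2 libraries, and 3 to 9 siNT reads before division at the Rnf2 and Kdm2b uaRNAs, precision is low.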

Other observations

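Several genes outside the naming rule, chosen after their values were seen, had an unadjusted p under 0.05 over exons without passing after adjustment. Among the developmental families they include Pax6 (log2 difference 0.92, adjusted p = 0.278), higher in the libraries labelled siZC3H4. Among Polycomb genes Auts2 (0.35, adjusted p = 0.243), Asxl3 (0.47, adjusted p = 0.269) and Foxk1 (0.39, adjusted p = 0.184) were higher, and Phc3 (-0.35, adjusted p = 0.209) and E2f6 (-0.42, adjusted p = 0.318) lower, where 11.0% of all genes were higher and 4.39% lower at that threshold.

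Replicate 3 lay above replicate 2 in both groups for 6 of the 10 Polycomb genes over exons and below it in both for 2, Jarid2 and Kdm2b. That is 80% with the same direction in both groups, beside 74.1% of the 12482 tested genes.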
